A study of Mus musculus with 14 samples.

Results

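Active and repressed chromatin were set side by side in blood progenitors that lack Kdm6a, the gene also called Utx. Genes were sorted by whether their ends carried acetylation of histone H3 at lysine 27 (H3K27ac), trimethylation of the same residue (H3K27me3), both or neither. Of 21887 protein-coding genes on the placed chromosomes, 1436 carried both marks in KO, 10321 H3K27ac only, 3106 H3K27me3 only and 7024 neither. A mark was read as present where islands, stretches of enriched ChIP-seq reads, of both KO libraries covered the same bases (at least 1 bp) within 2 kb either side of either annotated end of the gene. The KO group was made up of C57BL/6 bone marrow progenitors, depleted of mature lineage cells, with the genotype UTX KO. It had 2 H3K27ac and 2 H3K27me3 libraries. The WT group was the same cell fraction and strain with the genotype UTX WT, with 2 libraries of each mark, 2 libraries of UTX itself and 1 IgG library, made as the control of a BCOR experiment. The allele, any Cre driver, and the age and sex of the animals are not given in the labels. The labels also do not say whether libraries came from separate animals, so p-values below measure the spread between libraries only.

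H3K27ac is laid down by the acetyltransferases CBP and p300 at active promoters and enhancers, and H3K27me3 by Polycomb repressive complex PRC2 at silenced genes. UTX removes H3K27me3 and is also a subunit of the COMPASS-like complexes of KMT2C and KMT2D, which work with p300 at enhancers. One lysine can carry an acetyl or a methyl group but not both at once. A stretch with islands of both marks can therefore hold differently marked histones side by side, on the 2 alleles or in different cells, and in bulk libraries these cannot be told apart. Nor can fewer marked cells be told apart from less mark per cell.

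The promoters of 5 genes, picked with their values known, show the classes at base level. Where a gene had several annotated promoters, the one with the most CG was taken. They run from 250 bases before to 50 bases after an annotated start (RefSeq, build GRCm38.p6, the assembly of mm10), 5′ to 3′, and capitals mark CG dinucleotides, the sites of DNA methylation. Pax5, the B cell identity factor (chr4:44710645-44710944, minus strand), carried both marks over this promoter in KO and H3K27me3 only in WT. Tal1, a stem cell and erythroid factor (chr4:115057561-115057860, plus strand), carried both marks in KO and H3K27ac only in WT. Ikzf1, the lymphoid factor Ikaros (chr11:11685675-11685974, plus strand), carried H3K27ac only, and Barhl2, a neuronal homeobox factor (chr5:106458117-106458416, minus strand), H3K27me3 only, in KO and WT. Kel, a red cell blood group protein (chr6:41704276-41704575, minus strand), carried neither mark in KO and H3K27ac in WT.
Pax5: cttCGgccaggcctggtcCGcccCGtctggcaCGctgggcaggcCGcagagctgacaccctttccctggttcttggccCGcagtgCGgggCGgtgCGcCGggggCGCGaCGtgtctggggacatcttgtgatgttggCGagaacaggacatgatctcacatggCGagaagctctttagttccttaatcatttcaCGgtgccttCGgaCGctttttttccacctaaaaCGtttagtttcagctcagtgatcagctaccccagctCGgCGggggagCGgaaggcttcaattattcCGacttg
Tal1: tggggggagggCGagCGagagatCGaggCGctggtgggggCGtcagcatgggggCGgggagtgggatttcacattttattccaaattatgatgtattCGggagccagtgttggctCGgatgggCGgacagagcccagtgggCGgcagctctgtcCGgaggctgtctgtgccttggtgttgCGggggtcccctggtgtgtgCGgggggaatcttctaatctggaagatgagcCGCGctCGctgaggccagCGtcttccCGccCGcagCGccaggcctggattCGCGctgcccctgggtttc
Ikzf1: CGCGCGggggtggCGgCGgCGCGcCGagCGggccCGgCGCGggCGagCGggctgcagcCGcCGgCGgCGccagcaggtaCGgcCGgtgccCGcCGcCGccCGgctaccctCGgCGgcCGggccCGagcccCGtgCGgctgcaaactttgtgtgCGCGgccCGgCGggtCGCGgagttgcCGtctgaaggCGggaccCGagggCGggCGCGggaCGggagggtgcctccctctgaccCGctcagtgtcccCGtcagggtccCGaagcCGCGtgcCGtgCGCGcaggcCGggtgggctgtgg
Barhl2: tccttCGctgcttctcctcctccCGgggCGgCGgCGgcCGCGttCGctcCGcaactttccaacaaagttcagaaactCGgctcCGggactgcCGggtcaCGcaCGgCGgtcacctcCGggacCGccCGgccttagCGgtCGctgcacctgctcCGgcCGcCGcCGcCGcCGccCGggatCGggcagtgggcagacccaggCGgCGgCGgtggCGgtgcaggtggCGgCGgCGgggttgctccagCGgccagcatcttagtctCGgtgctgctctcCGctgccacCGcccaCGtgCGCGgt
Kel: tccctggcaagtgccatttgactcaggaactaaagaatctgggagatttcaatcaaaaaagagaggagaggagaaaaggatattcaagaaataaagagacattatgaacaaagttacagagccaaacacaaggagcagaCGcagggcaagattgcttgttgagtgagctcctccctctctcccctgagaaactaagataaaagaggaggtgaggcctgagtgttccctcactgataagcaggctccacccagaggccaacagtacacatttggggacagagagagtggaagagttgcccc
Ikzf1 held 52 CG and Barhl2 42, more than 99.4% and 97.0% of the 32851 promoters of the table. The active and the repressed example were thus both CG-rich. Pax5 with 23 and Tal1 with 22 CG lay above 78.5% and 76.9% of promoters, and Kel held 1 CG. The median promoter held 7 CG and 94.6% held at least 1. A promoter was listed for only 74.3% of the H3K27me3-only genes and 78.9% of the genes with both marks, so base composition was not compared between whole classes.

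The H3K27ac libraries held 14763744 and 11121847 reads in islands in KO, against 9330823 and 15256696 in WT. The H3K27me3 libraries held 2347442 and 2507004 in KO, against 2743508 and 2455803 in WT. The KO libraries of one mark overlapped incompletely: their shared bases made up 65.4% of their joint coverage for H3K27ac and 43.2% for H3K27me3. Kdm6a itself carried H3K27ac only in both genotypes, with 160 and 157 reads per 1000000 reads in islands (rpm) in KO and 170 and 94.6 rpm in WT, and islands at gene ends do not check its deletion. All 8 blood progenitor markers (Kit, Cd34, Spi1, Runx1, Lmo2, Myb, Ptprc, Gata2) carried H3K27ac in KO and in WT, and of 6 markers of other tissues 1 carried it in KO and 2 in WT.

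The 2 marks divided most genes between them. H3K27ac only was the most common state in KO, at 47.2% of all genes against 45.8% in WT, and H3K27me3 only took 14.2% in KO against 15.4% in WT. Both marks stood at 6.56% of genes in KO against 8.24% in WT, and neither at 32.1% against 30.5%. By bases the overlap was a small part of either mark. Shares of genes and of bases are on different scales, and no expected overlap was computed for either. The KO libraries shared 126.4 Mb of H3K27ac and 51.98 Mb of H3K27me3, but only 1.53 Mb carried both marks, which is 1.21% of the H3K27ac and 2.94% of the H3K27me3 bases. In WT 1.98 Mb carried both, or 1.51% of H3K27ac and 3.03% of H3K27me3 bases. With H3K27me3 read from KO replicate 2 alone, 2.60 Mb carried both marks in KO. Taking every pairing of a KO library of one mark with a KO library of the other gave 2.49 to 3.56 Mb and 1794 to 2195 genes with both marks, and the WT pairings gave 3.28 to 3.93 Mb and 2306 to 2511 genes. With every library of a mark held to the same number of islands, 1374 genes carried both marks in KO and 1542 in WT. The number of genes with both marks depends on how islands and windows are set. It was 693 in KO and 951 in WT when islands below the median reads per kb of their library were left out, and 462 in KO where a mark had to cover 50% of a window.

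**Figure D1:**
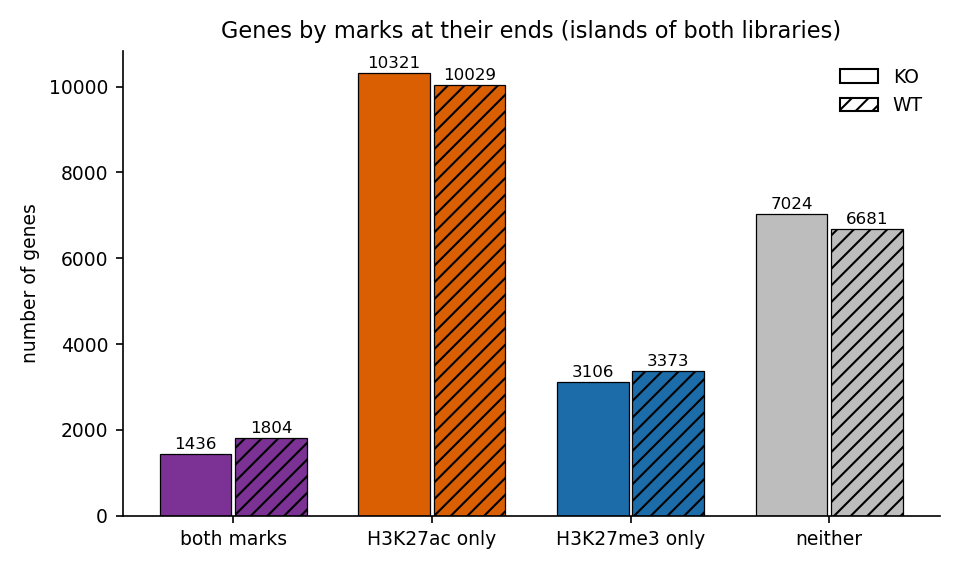
Number of protein-coding genes (y axis) in each class of marks at gene ends, in KO (left of each pair) and WT. H3K27ac only was the largest class, with 10321 genes in KO and 10029 in WT, and both marks the smallest, with 1436 genes in KO and 1804 in WT.

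Bases with both marks lay mainly at genes. They fell in 869 stretches with a median of 1.4 kb and a maximum of 17 kb, and 60.0% of their length was at gene ends, 29.1% inside genes and 10.9% between genes. Bases with H3K27ac only lay 26.5% at gene ends and 51.2% inside genes. Those with H3K27me3 only lay 28.8% at gene ends and 36.1% between genes, in stretches of up to 144.8 kb. H3K27ac islands that met H3K27me3 had median widths of 2.8 and 3.0 kb in the KO libraries, against 4.2 kb in both for the rest. Any shared base counted as meeting, which favours wide islands. H3K27me3 islands that met H3K27ac were the wider ones, with medians of 4.6 and 5.4 kb against 3.6 and 5.0 kb for the rest. They also held more reads per kb, with medians of 11.8 and 9.50 rpm per kb against 10.4 and 7.71, while for H3K27ac these medians were 3.91 and 4.59 rpm per kb against 3.76 and 4.67. Few H3K27me3 stretches touched H3K27ac: 835 of 10963 (7.62%) overlapped it, 51.9% lay 10 to 100 kb away from the nearest H3K27ac and 25.9% at least 100 kb away.

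Of the 1436 genes with both marks, 678 (47.2%) carried them on the same bases, 240 (16.7%) at the same end on different bases, and 518 (36.1%) at different ends of the gene. The rule thus joins overlapping marks with marks at opposite ends of a gene. Among the 1054 of them longer than 4 kb with a known strand, 393 had both marks at the 5′ end and none at the 3′ end, 200 had H3K27ac at the 5′ end and H3K27me3 at the 3′ end, and 203 the reverse. Across all 1133 with a known strand, H3K27ac was most frequent 0.3 kb after the start, at 68.0% of genes, and narrow, with 17.0% at 1.9 kb before it. H3K27me3 was broader, with a maximum of 57.0% at 0.7 kb after the start and 40.2% at 1.9 kb before it. Genes with H3K27ac only reached 91.4% at 0.3 kb, and genes with H3K27me3 only 85.6% at 0.7 kb.

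**Figure D2:**
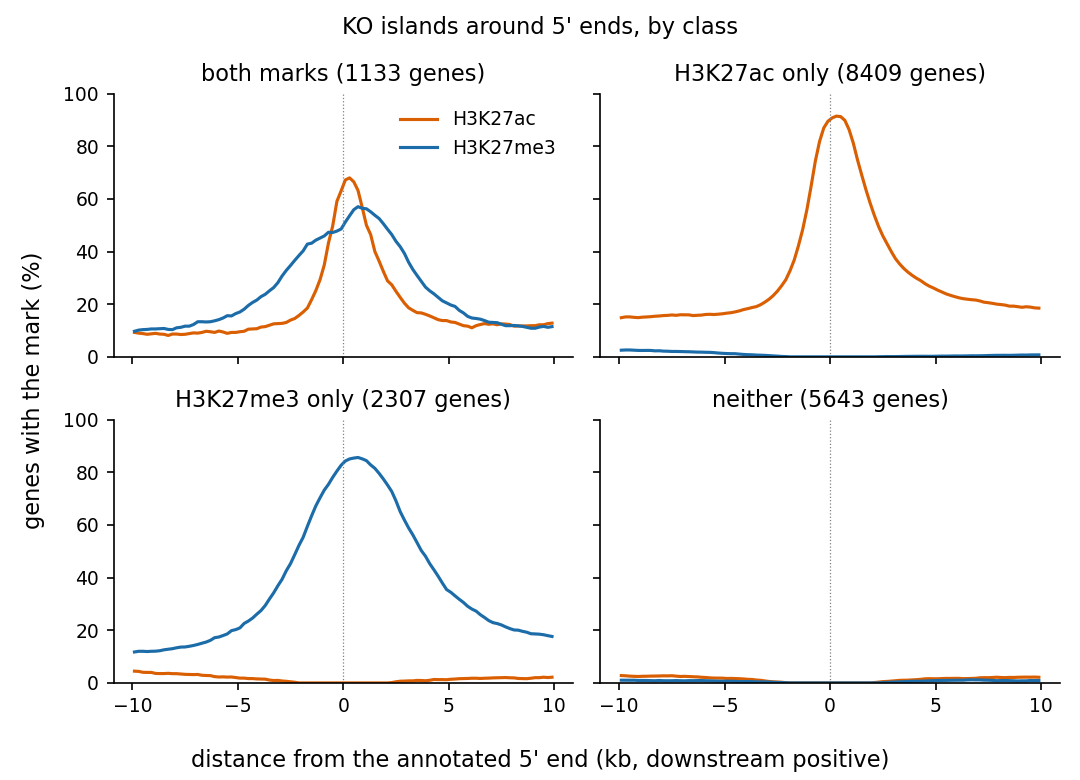
Share of genes (y axis, %) whose shared KO islands of each mark cover a position, against the distance from the 5′ end (x axis, kb, negative before the start), 1 panel per class. In genes with both marks H3K27ac peaks at 68.0% close to the start, while H3K27me3 peaks at 57.0% and spreads wider.

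Summed over the gene-end windows, each mark had a lower level and a shorter covered length in genes with both marks than in genes with that mark alone. Levels are given in rpm, summed over all islands meeting a gene's windows, so a wide island counts whole and neighbouring genes can share it. The median H3K27ac level of genes with both marks was 26.2 and 27.4 rpm in the KO libraries, against 56.4 and 57.8 rpm for genes with H3K27ac only. The median H3K27me3 level was 79.2 and 79.0 rpm, against 107.8 and 109.7 rpm for genes with H3K27me3 only. In the WT libraries the same genes had medians of 66.7 and 78.2 rpm, and of 97.7 and 104.4 rpm. Both classes thus had higher H3K27me3 medians in KO, so KO above WT at a gene named below is not particular to that gene. The rule asked for islands in both KO libraries but not in WT, which favours KO in these medians. Of genes with both marks, 91.2 and 94.5% had an H3K27me3 island in the WT libraries. Regions with islands in all 4 libraries were tested below. Their median H3K27me3 log2 change was -0.049 at genes with both marks and -0.0059 at H3K27me3-only genes. The median length covered within the windows was 2.34 kb for H3K27ac and 2.64 kb for H3K27me3 in genes with both marks, against 3.29 kb in H3K27ac-only and 4.00 kb in H3K27me3-only genes. The classes were set by these islands, so the differences are a description with no test.

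Of the gene lists, the stem and progenitor regulators had the highest share with both marks: 9 of 18 carried both in KO, 5 H3K27ac only, 2 H3K27me3 only and 2 neither. Gata2, a factor needed for stem cell maintenance, had 160 and 105 rpm of H3K27ac in KO against 218 and 184 in WT, and 378 and 381 rpm of H3K27me3 in KO against 172 and 219 in WT. KO lay below WT for H3K27ac and above WT for H3K27me3, without overlap. Meis1, a partner of Hox proteins, had 203 and 156 rpm of H3K27ac in KO against 252 and 222 in WT. Its H3K27me3 was 322 and 33.9 rpm in KO against 64.5 and 97.7 in WT, so the 2 KO libraries lay on either side of WT. Mecom (Evi1), a stem cell factor, had 38.3 and 27.9 rpm of H3K27ac in KO against 59.8 and 44.2 in WT. Its H3K27me3 was 292 and 262 rpm in KO against 162 and 258 in WT, so the lower KO value stood next to the higher WT value. Hlf, Mycn, Erg, Flt3, Hoxb4 and Hoxa9 were the others with both marks, and the same 9 genes carried both in WT.

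All 39 Hox genes carried H3K27me3 in KO, 30 of them alone and 9 with H3K27ac, against 26 alone and 12 with H3K27ac in WT. Hox factors set position along the body axis, and the A and B clusters are also used in blood stem cells. Hoxa9, which is active in progenitors, carried both marks on all 8002 bases of its windows. Its H3K27ac was 142 and 109 rpm in KO against 244 and 183 in WT, and its H3K27me3 1846 and 1890 rpm in KO against 1187 and 1759 in WT, from an island shared with its neighbours. The C cluster carried no H3K27ac: Hoxc10 and its neighbours shared 1 island of 3638 and 3820 rpm in KO and 3881 and 4110 in WT, the highest level of any H3K27me3-only gene. Hoxb6, Hoxb2 and Hoxa2 carried both marks in WT and H3K27me3 only in KO.

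Among lineage genes the B cell list stood at the active end. All 15 carried H3K27ac in KO, 13 alone and Ebf1 and Pax5 with H3K27me3. Ebf1, which starts the B cell programme, had 59.1 and 94.9 rpm of H3K27ac in KO against 7.39 and 0 in WT, and 215 and 140 rpm of H3K27me3 in KO against 215 and 308 in WT. Pax5 had 66.2 and 99.7 rpm of H3K27ac in KO and none in WT, with 439 and 473 rpm of H3K27me3 in KO against 345 and 536 in WT. H3K27ac was thus present at both factors in KO, where WT had at most 1 weak island, while their H3K27me3 overlapped between genotypes at Pax5 and did not at Ebf1, where the nearest values of KO and WT were alike. Rag1, which cuts antigen receptor genes, Cd22 and Ms4a1, both B cell surface proteins, carried H3K27ac only in KO and neither mark in WT. These 3 had neither mark in KO when islands below the median reads per kb were left out. Cd79a, part of the B cell receptor complex, had 122 and 140 rpm of H3K27ac in KO against 90.0 and 77.2 in WT. The part of B-lineage cells left after depletion in these values was not tested.

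The erythroid genes carried H3K27ac less often in KO than in WT. Of 20, 8 carried H3K27ac only in KO, 3 both, 2 H3K27me3 only and 7 neither, against 15, 3, 1 and 1 in WT. The KO shares of 40% with H3K27ac only and 35% with neither were near those of all genes, 47.2% and 32.1%. In WT 75% carried H3K27ac only, against 45.8% of all genes. Kel had no H3K27ac in either KO library, against 86.2 and 97.5 rpm in WT, and Rhag, a red cell membrane protein, none in KO against 83.2 and 102 in WT. Car1, a carbonic anhydrase, likewise had none in KO against 69.5 and 85.8 rpm in WT. None of these 3 had H3K27me3 in any of the 4 libraries: they lacked both marks in KO and did not carry H3K27me3 in place of H3K27ac. Other erythroid genes carried both. Tal1 had 109 and 102 rpm of H3K27ac in KO against 306 and 344 in WT, and 244 and 197 rpm of H3K27me3 in KO against 0 and 59.9 in WT. Epor, the erythropoietin receptor, had 9.01 and 11.6 rpm of H3K27ac in KO against 58.5 and 58.3 in WT, and 79.2 and 83.8 rpm of H3K27me3 in KO against 37.5 and 68.4 in WT. Both genes had less H3K27ac and more H3K27me3 in each KO library than in either WT library. Genes with both marks had to carry H3K27me3 in both KO libraries, and the share of all genes with such an order is not given. Gata1 carried neither mark at its gene ends in KO, but an annotated promoter inside the gene span was covered by H3K27ac. Its gene ends carried no H3K27ac in WT either. Of the 6 erythroid markers (Gata1, Klf1, Epor, Hba-a1, Alas2, Rhag) 2 carried H3K27ac in KO and 5 in WT, with sums of 81.2 and 108 rpm in KO against 411 and 386 in WT. The part of the number of erythroid cells in the fraction in these values was not tested.

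Of 13 megakaryocyte genes, 7 carried H3K27ac only in KO, 3 both (Itga2b, Gp5, Gp9) and 3 neither, among them Vwf and Gp6, which carried H3K27ac only in WT. The share with H3K27ac only, 53.8%, was near the 47.2% of all genes. Both marks stood at 23.1% against 6.56%, and neither at 23.1% against 32.1%. Gp5, a platelet glycoprotein, had 12.4 and 13.8 rpm of H3K27ac in KO against 54.7 and 50.5 in WT, and 97.5 and 63.0 rpm of H3K27me3 in KO against 34.6 and 63.5 in WT. Of 20 granulocyte and monocyte genes, 15 carried H3K27ac only in KO, and Cebpa, Irf8 and Cd14 both. That was 75% and 15%, against 47.2% and 6.56% of all genes. Cebpa, the granulocyte factor, had 127 and 108 rpm of H3K27ac in KO against 103 and 100 in WT, and 109 and 112 rpm of H3K27me3 in KO against 50.7 and 79.4 in WT. Ltf, S100a9 and Fcgr3 carried H3K27ac only in KO and neither mark in WT. All 3 had neither mark in KO when islands below the median reads per kb were left out, S100a9 also with equal numbers of islands. The 6 granulocyte and monocyte markers summed to 879 and 729 rpm of H3K27ac in KO against 564 and 599 in WT. Of 15 T and NK cell genes, 5 carried H3K27ac only in KO, 6 H3K27me3 only, among them Gata3, Tcf7 and Bcl11b, and 4 neither. That was 33.3%, 40% and 26.7%, against 47.2%, 14.2% and 32.1% of all genes. The 4 T and NK cell markers summed to 66.8 and 48.4 rpm of H3K27ac in KO against 34.5 and 26.0 in WT, and the 6 stromal and endothelial markers to 368 and 381 rpm in KO against 109 and 212 in WT. Of these, 1 T and NK cell marker and 2 stromal and endothelial markers carried shared H3K27ac in each genotype. Cd8a, Ncr1, Cd3e, Col1a1, Lepr, Cxcl12 and Cdh5 did so in neither, so a rise across either set of markers is not shown. Kdr, an endothelial receptor gene with both marks in KO, instead had lower H3K27ac there (log2 change -0.916, edgeR adjusted p = 0.0391). That call was lost with DESeq2, when reads were taken per covered length, and with islands required in at least 2 libraries only. It was also lost when any 1 library was left out. The part of other cell types in the lineage values was not tested.

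**Figure D3:**
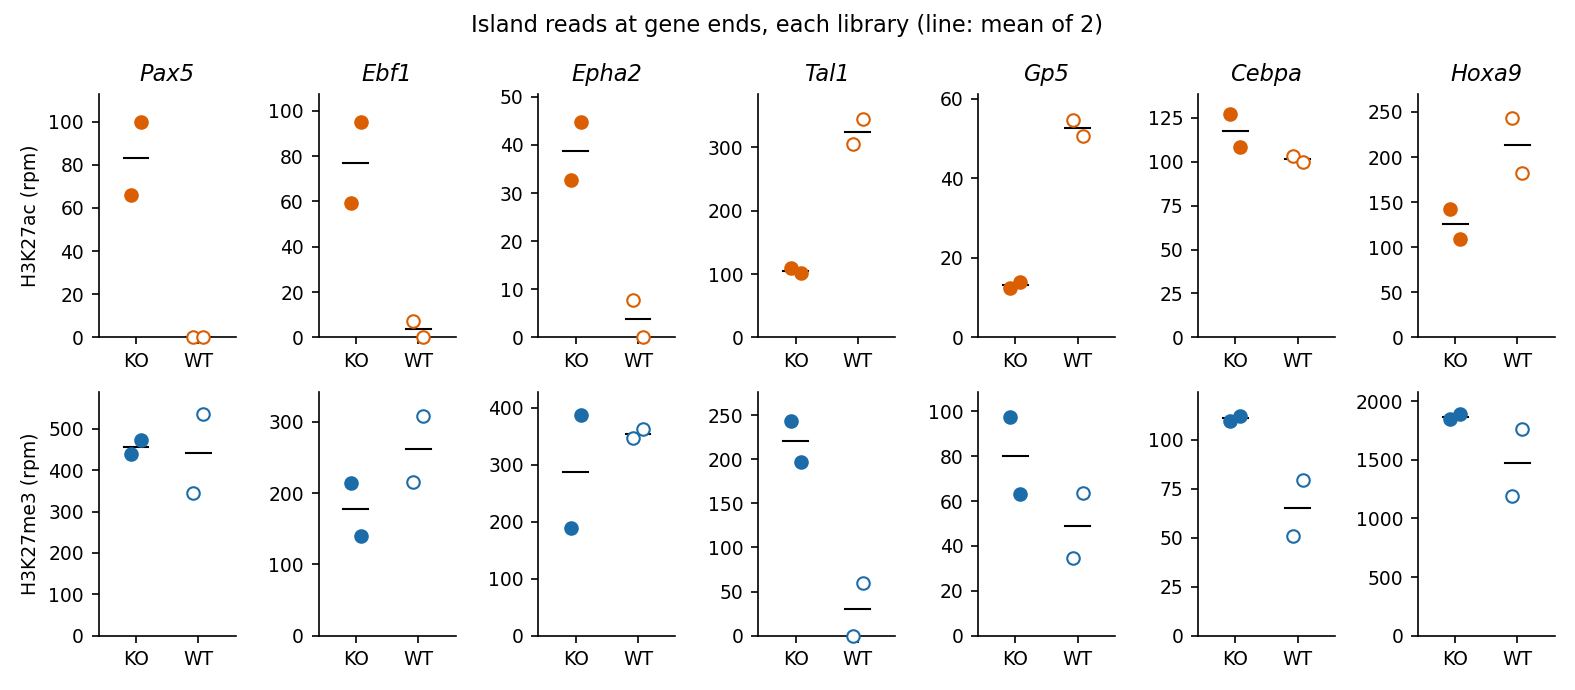
Reads of islands at the gene ends of 7 genes (y axes, rpm), H3K27ac above and H3K27me3 below, each point 1 library and the line the mean of 2, KO left of WT. Pax5 and Ebf1 have H3K27ac in KO and at most 7.39 rpm in WT, while Tal1 and Gp5 have less H3K27ac in KO.

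Developmental genes carried H3K27me3. Of 58 developmental transcription factors, 57 had H3K27me3 only in KO, and Pax2, a kidney factor, had both. Barhl2 had 785 and 883 rpm of H3K27me3 in KO against 577 and 749 in WT, Pax6, the eye factor, 926 and 893 against 739 and 1096, and Sox2, a pluripotency factor, 622 and 647 against 449 and 588. KO was above WT in both libraries for Barhl2 and Sox2 and overlapped WT for Pax6, and none of the 3 had an H3K27ac island in any library. The median of all H3K27me3-only genes, a class chosen by its KO islands, was also above WT in both KO libraries. In tested regions at these genes the median log2 change was -0.0059, and edgeR called 0 H3K27me3 regions higher in KO. Of 43 signalling ligands, 36 carried H3K27me3 only and 6 both, including Jag1 and Dll4, ligands of Notch receptors. Jag1 had 32.1 and 26.7 rpm of H3K27ac in KO against 6.11 and 6.10 in WT, and 37.1 and 55.0 rpm of H3K27me3 in KO against 103 and 127 in WT. Of the 6 GATA factors, 4 carried H3K27me3 only, and of 25 ETS factors 13 carried H3K27ac only, 3 both (Etv5, Erg, Spib), 3 H3K27me3 only and 6 neither. The ETS shares of 52% with H3K27ac only and 12% with H3K27me3 only were near those of all genes, 47.2% and 14.2%, and the other shares were 12% both against 6.56% and 24% neither against 32.1%.

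Growth genes were split. Of 17 tumour suppressor and cell cycle genes, 10 carried H3K27ac only in KO, among them Myc and Trp53, 4 both (Mycn, Cdkn2a, Ccnd1, Ccnd2) and 3 H3K27me3 only. The shares with H3K27ac only (58.8%) and H3K27me3 only (17.6%) were near those of all genes, 47.2% and 14.2%. Both marks stood at 23.5% against 6.56%, and neither at 0% against 32.1%. Cdkn2a, which encodes the cell cycle inhibitors p16 and p19, had 7.92 and 8.72 rpm of H3K27ac in KO and none in WT, and 649 and 488 rpm of H3K27me3 in KO against 467 and 774 in WT. Its H3K27ac was weak: it was not there when islands below the median reads per kb were left out. The chromatin machinery itself was mainly active, with 23 of 30 Polycomb genes in H3K27ac only, including the PRC2 core Ezh2, Eed and Suz12, and 6 both, among them Cbx2, Cbx8 and Bmi1. Of 22 UTX partners and H3K27 enzymes, 19 carried H3K27ac only, including Ep300, Crebbp and Kmt2d. Kdm6b, the other H3K27 demethylase (JMJD3), carried both, with 334 and 354 rpm of H3K27ac and 44.3 and 31.9 rpm of H3K27me3 in KO.

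H3K27ac without H3K27me3 was the state of the housekeeping lists: 76 of 84 ribosomal protein genes, 34 of 39 proteasome genes and 65 of 77 respiratory chain genes. The highest H3K27ac-only levels were at Tspoap1 (891 and 807 rpm in KO against 682 and 681 in WT), Etv6 and Irf2bp2, with Ikzf1, Zeb2 and Arid1a among the first 10. Neither mark was the state of 1085 of 1106 olfactory receptor genes, 352 of 353 vomeronasal receptor genes, 69 of 71 defensin genes and all 256 genes on chromosome Y. The sex of the animals is not given, and whether the cells held a chromosome Y was not tested. The median gene with neither mark was 7.40 kb long, against 21.2 kb with H3K27ac only, 26.2 kb with H3K27me3 only and 24.1 kb with both. The 57 clustered protocadherins, neuronal adhesion proteins, differed between genotypes: 33 carried neither mark, 15 H3K27ac only, 6 both and 3 H3K27me3 only in KO, against 46, 0, 1 and 10 in WT. Many of these genes lie side by side and share annotated ends, so their counts are not independent. With equal numbers of islands per library, none of these genes carried H3K27ac in KO, and the same was true when islands below the median reads per kb were left out or when 50% of a window had to be covered.

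**Figure D4:**
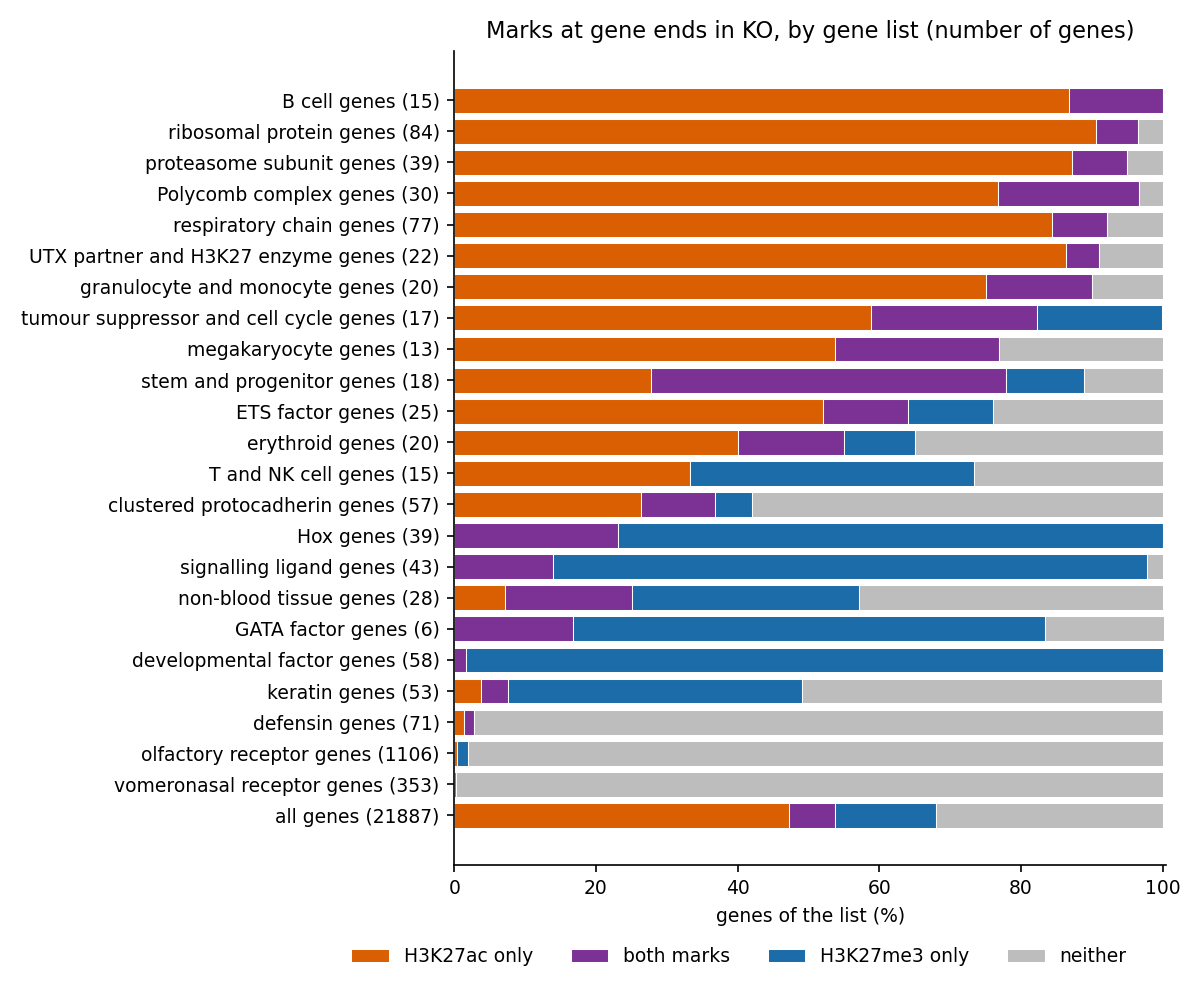
Share of each gene list (x axis, %) in each class of marks in KO, with the number of genes in brackets and all genes in the bottom row. B cell, ribosomal and proteasome genes are nearly all H3K27ac, Hox and developmental factors nearly all H3K27me3, and olfactory, vomeronasal and defensin genes neither.

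Most genes held the same class in both genotypes. Of the genes with both marks in KO, 1091 had both in WT, 180 H3K27me3 only, 159 H3K27ac only and 6 neither. In the other direction 468 genes with both in WT carried H3K27ac only in KO, 224 H3K27me3 only and 21 neither. Direct exchange of one mark for the other was rare: 46 genes carried H3K27ac only in KO and H3K27me3 only in WT, and 27 the reverse. Of the genes with neither mark in KO, 425 had H3K27me3 only and 262 H3K27ac only in WT. The number of genes with an H3K27me3 island was 5150 and 5500 in the KO libraries against 5968 and 6121 in WT (mean difference -719.5, exact permutation test, two-sided, p = 0.33, the smallest value that 2 against 2 libraries allow). With equal numbers of islands the mean difference was -286.5. For H3K27ac the numbers were 12292 and 11935 in KO against 12058 and 12235 in WT (exact permutation test, two-sided, p = 1).

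To compare amounts and not presence, islands of a mark were merged and reads were tested in those regions where every one of the 4 libraries had an island (edgeR quasi-likelihood test, two-sided, Benjamini-Hochberg adjustment over all regions, threshold 0.05). Of 18733 H3K27ac regions, 12.1% (2259) were higher and 14% (2619) lower in KO. Read per covered length, 80 were higher and 161 lower. Leaving out 1 library, whichever it was, gave 1235 to 1385 higher, and leaving out WT replicate 2 gave 1365 lower. Of the 1294 H3K27ac regions at genes with both marks in KO, 182 (14.1%) were higher and 239 (18.5%) lower, with a median log2 change of -0.01. Of 6736 H3K27me3 regions, 0 were higher and 1 (0.0148%) lower in KO with edgeR, 523 had an unadjusted p under 0.05, and DESeq2 called 18 higher and 22 lower. The 1 region lay at Tnrc18, a gene with both marks (log2 change -1.99, SE 0.249, edgeR adjusted p = 0.0477), and the call was lost without TMM scaling (adjusted p = 0.0529), with islands required in at least 2 libraries only (0.133), and without H3K27me3 KO replicate 1 or either WT replicate (0.143 to 0.395). Per covered length the log2 change was -0.62, with an edgeR adjusted p of 1.

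H3K27ac fell in KO at several of the erythroid and platelet genes with both marks. The region at Epor fell to 10.7 ± 1.77 CPM (counts per 1000000 reads of tested regions) in KO against 65.9 ± 2.34 in WT (SD, n = 2 each; log2 change -2.62, SE 0.173, edgeR adjusted p = 0.000297). Sptb, the red cell beta spectrin (log2 change -2.47), Gp9, another platelet glycoprotein (-1.86), and Tal1 (-1.67) also passed, in every setting tried. Gp5 (-2.12) passed, but not when reads were taken per covered length (edgeR adjusted p = 0.0942). Itga2b, also with both marks, was lower in KO (log2 change -0.635, edgeR adjusted p = 0.0128). Per covered length it was instead higher (log2 change 1.13, edgeR adjusted p = 0.0429). The H3K27me3 regions of Epor, Sptb, Gp9 and Gp5 had log2 changes of 0.52, 0.69, 1.22 and 0.60, none of which passed. Gata2, Hoxa9 and Ccnd2 had lower H3K27ac in KO (log2 changes -0.68, -0.66 and -0.80), calls that were lost when either WT library was left out. They were also lost with islands required in at least 2 libraries only (edgeR adjusted p = 0.0733 to 0.139) and per covered length (edgeR adjusted p = 0.1 to 0.395). Among genes with both marks the greatest fall was at Slc22a23, a transporter-family gene, with 14.4 ± 2.73 CPM in KO against 252 ± 56.0 in WT (log2 change -4.12, edgeR adjusted p = 0.000179), and it did not pass when reads were taken per covered length (edgeR adjusted p = 0.0525).

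In the other direction, among genes with both marks, H3K27ac rose most at Chst3, a chondroitin sulfotransferase, with 121 ± 33.1 CPM in KO against 17.6 ± 1.12 in WT (SD, n = 2 each; log2 change 2.79, SE 0.205, edgeR adjusted p = 0.000412). Ncam1, an adhesion protein (2.49), and Irf4, a lymphoid factor (2.31), also rose. Irf4 regions had 34.7 and 49.2 CPM in KO against 6.94 and 9.71 in WT, with H3K27me3 at 85.1 and 102 CPM in KO against 56.8 and 102 in WT. Both marks were tested at 1170 of the genes with both. Where the H3K27ac change was above 0, called or not, that of H3K27me3 was below 0 in 381 and above 0 in 209. Where the H3K27ac change was below 0, that of H3K27me3 was above 0 in 326 and below 0 in 254. Neighbouring genes can share a region, so these genes are not independent. Where H3K27ac was called lower in KO (210 genes) the H3K27me3 change was above 0 in 144, with a median of 0.18. Where H3K27ac was called higher (179 genes) the H3K27me3 change was below 0 in 126, with a median of -0.14, against -0.04 over all 1170. These H3K27me3 values did not pass one by one, apart from Tnrc18.

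**Figure D5:**
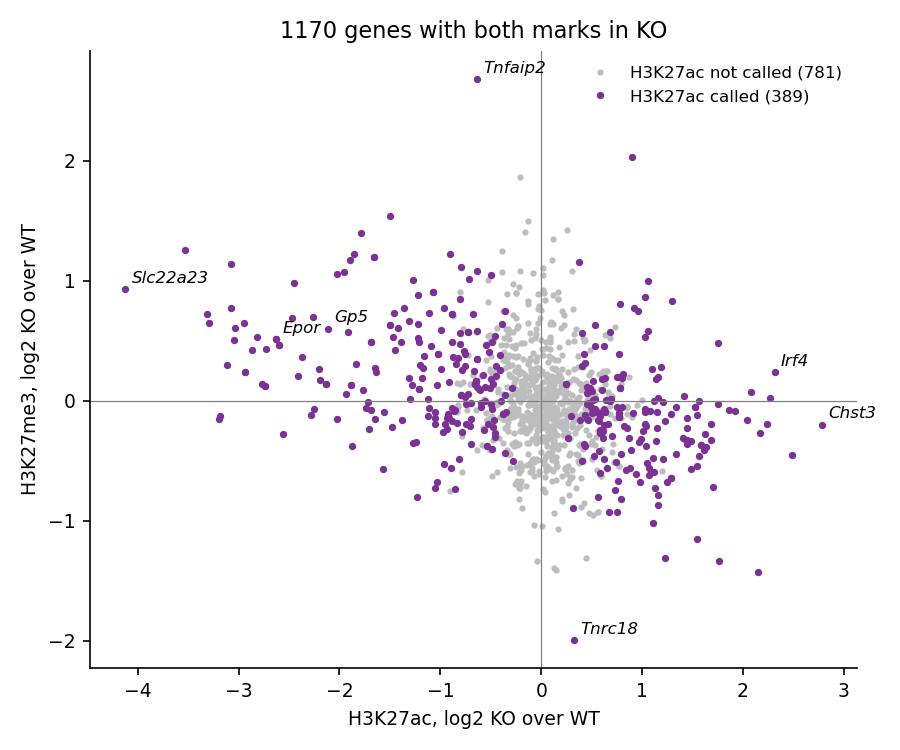
Log2 change KO over WT of H3K27me3 (y axis) against that of H3K27ac (x axis) at 1170 genes with both marks in KO, purple where the H3K27ac region passed the edgeR threshold. Epor, Gp5 and Slc22a23 lie at lower H3K27ac and above 0 for H3K27me3, and Chst3 and Irf4 at higher H3K27ac.

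UTX, measured in WT only and not used to define the classes, met them at different shares, given as counts with no test. Islands of both UTX libraries met the ends of 33.7% of all genes, but of 63.9% (6595) of the genes with H3K27ac only in KO, 45.2% (649) of those with both, 3.83% (119) of those with H3K27me3 only and 0.27% (19) of those with neither. An island of 1 UTX library alone met 12.0 and 12.3% of the genes with H3K27me3 only, and 1.75 and 2.43% of those with neither. By length, UTX islands covered 19.2% of the bases that carry both marks in KO, 8.15% of those with H3K27ac only and 0.515% of those with H3K27me3 only. By the count of genes the share was highest with H3K27ac only, and by length it was highest for bases with both marks, which lie mainly at gene ends. Genes with both marks that UTX occupied in WT included Tal1, Mecom, Hes1, Dll4 and Cbx2, and those it did not occupy included Meis1, Hlf, Pax5 and Hoxa7. The IgG library met the ends of 0.48 to 0.93% of genes across the classes.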

How the data were processed

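ChIP-seq of H3K27ac, H3K27me3, UTX and IgG in lineage-depleted bone marrow progenitors was used, in 11 of the 14 samples of the series; 3 were not used here. Islands were called with SICER on mm10, per the submitters' processing notes; the version, aligner, thresholds and control are not given in the sources used here. The authors deposited, for each library, islands on a 200 bp grid with their counts, whole numbers of reads per island. Reads outside islands were not used, so depth is reads in islands (154029 for IgG to 15256696), and a missing island is no count of 0.

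Shared stretches were computed from islands of both libraries of a mark and set against 21887 RefSeq protein-coding genes (GRCm38.p6), with windows of 2 kb at both ends. Strand was known for 17492 genes. The tools were edgeR 4.0.16 (TMM), DESeq2 1.42.0 as an alternative, R 4.3.3, Python 3.11.15 and bedtools 2.31.1. Shared bases were checked against bedtools on the deposited islands, the class rule on made-up genes, and the edgeR test on simulated counts. A gene counted as UTX-occupied when islands of both UTX libraries met its ends and none of IgG did. A region's change at a gene is that of the strongest tested region at its ends. Named genes are members of the 23 lists (2198 genes, all matched), the strongest genes of each class and of each change of class, and the 5 regions with the greatest change in each direction at genes with both marks. Some list members are not reported here by name. Members, lists and rules were chosen with earlier results of these data known. Alternatives covered island thresholds, windows of 1 kb and 5 kb, IgG, chromosomes, left-out libraries and the settings of the region tests. No other setting was used for the values in the report unless named there.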

Additional observations from a re-analysis of the deposited data

How the results depend on the processing

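The number of genes with both marks was 693 with islands at or above the median reads per kb, 2255 with windows of 5 kb, 2246 over whole genes, 631 at 5′ ends of genes of known strand, 462 where 50% of a window was required and 1105 with windows of 1 kb; leaving out a library gave 1504 to 1951. Bases with both marks were 0.522 Mb with those islands and 1.87 to 2.60 Mb without one library. Bases with H3K27ac only were 71.0 Mb with those islands, and those with H3K27me3 only were 49.8 to 92.9 Mb without one library, the highest without H3K27me3 KO replicate 1. UTX occupancy was 12.0 to 12.3% of H3K27me3-only genes and 1.75 to 2.43% of genes with neither where 1 UTX library sufficed. The H3K27ac genes per library differed by 7.5 with windows of 1 kb, 93.0 with equal island numbers, and -211.5 to 145.5 without one library. The H3K27ac regions called were 80 higher and 161 lower per covered length, 5207 lower with islands in at least 2 libraries, and 1235 to 1385 higher and 1365 to 1907 lower without one library. For H3K27me3, DESeq2 called 18 higher and 22 lower, reads per covered length 4 higher, and 0 were lower without TMM, with islands in at least 2 libraries or with the replicate block; without one library 0 to 1 were higher and 0 to 8 lower. Replicate numbers did not pair the libraries (correlation of deviations 0.045 for H3K27ac, -0.050 for H3K27me3); with the replicate block 2596 H3K27ac regions were higher and 2863 lower. The H3K27me3 log2 change, not called at these genes, reversed per covered length at Chst3 (0.26) and Gp5 (-0.33), and without one library ranged from -0.12 to 0.71 at Irf4 and from -0.070 to 0.38 at Hoxa9. The classes of named genes were the same in 7101 gene and setting pairs and moved in 433. The cause of these moves was not tested beyond the settings' own construction. Genes with enrichment just under the island threshold are read as unmarked, which limits every class.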
